A study of Mus musculus with 4 samples.

Results

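The genes of the cell division cycle were described here in bronchoalveolar lavage fluid (BALF) cells, which are recovered by washing the airways and alveoli, after repeated bleomycin in mice. The set held 54 genes, named by symbol, and every array probe whose accession belonged to 1 of these genes was taken, with the brightest probe standing for the gene. All 54 genes had a measured probe, among 20802 named genes on the array, and 52 of them passed the filter on dim probes. They were divided by the phase in which their products act into 5 G1 genes, 19 S phase genes and 30 G2/M genes, and the question put to the data was whether S phase and G2/M genes differed between genotypes in the same way.

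The data were 4 one-color arrays, 2 per genotype (wild-type and S1pr2-/-), and all mice received intraperitoneal bleomycin at 0.035 U/g 2 times weekly, with cells collected on day 22 per the labels. S1pr2 encodes a receptor for sphingosine-1-phosphate, and the S1pr2-/- mice carried a targeted disruption of it on a mixed background that included C57BL/6J, with wild-type littermates as controls. The animals were young adults, and no saline-administered array is part of the comparison. The cells were labelled as alveolar macrophages, but the RNA came from unsorted BALF cells. The number of mice behind each array is not given in the sources used here, so the p-values measure only the spread between these arrays.

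Values are log2 of the processed probe intensity over the 75th percentile of its array, with a floor of 0.01 of that percentile, which is -6.64 on this scale. A value of 0 is a probe as bright as that percentile. The 75th percentiles lay between 2489 and 2817 intensity units, and detection above background ran from 67.5% to 72.1% of probes. With so few arrays, their number sets the precision. The probe for S1pr2 itself went against the genotype labels. It read -0.13 and -0.16 in wild-type cells and 2.67 and 2.54 on the arrays labelled S1pr2-/- (difference 2.75, adjusted p = 0.332 by limma), and whether the probe lies in the disrupted part is not known here, so every direction between genotypes below is one between labels. All 12 alveolar macrophage markers, such as Marco and Chil3, were above background on at least 1 array, with a summed level of 846.7 and 926.3 in wild-type cells and 819.8 and 903.6 on the others, in multiples of the 75th percentile.

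The cell cycle is driven by cyclins that switch on cyclin-dependent kinases in turn. D-type cyclins with Cdk4 and Cdk6 release E2F factors from the retinoblastoma protein, E2F factors then switch on the genes of DNA synthesis, and a later wave of transcription by B-Myb, Foxm1 and the MuvB complex switches on the genes of mitosis. Resident alveolar macrophages renew themselves by dividing in place, and macrophages, lymphocytes and granulocyte precursors can all contribute cycling cells to lavage fluid. In bulk RNA, fewer cycling cells and less RNA of these genes per cell cannot be told apart.

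The promoters carry the sequence signals of these waves. Windows of 250 bases before to 50 bases after the transcription start, taken from RefSeq on build GRCm38.p6, were found for 42 of the 54 genes. They were searched on both strands for the cell cycle genes homology region (CHR, the MuvB contact, as TTTGAA or TTTAAA), for the CCAAT box bound by NF-Y (CCAAT), and for an E2F site (TTTCCCGC, TTTGGCGC, TTTCGCGC or TTTGCCGC). The E2F words can overlap one another on opposite strands. A CHR together with a CCAAT box stood in 18 of 23 G2/M genes and in 5 of 16 S phase genes, against 12.2% of 27025 genes with a window. An E2F word stood in 7 of 16 S phase genes (Cdc6, Cdk2, E2f2, Mcm3, Mcm5, Mcm6 and Mcm7) and in 1 of 23 G2/M genes, Cdk1, against 2.6% of all genes. The following G2/M windows are shown 5′ to 3′ on the gene's strand, with CHR and CCAAT words in capitals, because they are the 3 with the largest gap between the arrays labelled S1pr2-/-, as described below, among members holding both words and having a single window (Prc1, with 2 windows, was left out).
Kif23 (chr9:61946750-61947049, minus strand): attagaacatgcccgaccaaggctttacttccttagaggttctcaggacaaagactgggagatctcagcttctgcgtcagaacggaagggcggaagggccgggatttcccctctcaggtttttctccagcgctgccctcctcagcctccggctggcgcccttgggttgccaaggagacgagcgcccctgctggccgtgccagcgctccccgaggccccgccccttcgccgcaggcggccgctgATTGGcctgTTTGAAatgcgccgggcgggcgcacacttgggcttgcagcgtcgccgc
Cdc20 (chr4:118437294-118437593, minus strand): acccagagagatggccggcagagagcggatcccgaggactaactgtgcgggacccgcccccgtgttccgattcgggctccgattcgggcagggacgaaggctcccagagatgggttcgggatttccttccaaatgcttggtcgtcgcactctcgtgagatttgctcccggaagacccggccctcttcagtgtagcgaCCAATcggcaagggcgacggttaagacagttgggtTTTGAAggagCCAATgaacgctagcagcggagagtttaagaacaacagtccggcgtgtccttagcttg
Plk1 (chr7:122159185-122159484, plus strand): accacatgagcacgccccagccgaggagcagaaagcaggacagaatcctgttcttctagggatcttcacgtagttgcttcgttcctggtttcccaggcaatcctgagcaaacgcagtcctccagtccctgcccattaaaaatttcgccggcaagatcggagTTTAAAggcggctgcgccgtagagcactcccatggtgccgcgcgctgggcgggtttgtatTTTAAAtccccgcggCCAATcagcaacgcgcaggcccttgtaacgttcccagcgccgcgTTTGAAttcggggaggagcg
In the Kif23 window a reversed CCAAT box began at base -7 and the CHR at base 3, counted from the start site as base 1. In the Cdc20 window the CHR at base -18 stood between CCAAT boxes at -53 and -8. The Plk1 window held CHR words at -89, -29 and 31 and a CCAAT box at -14.

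The following S phase windows have the E2F words in capitals, and are the 3 with the largest gap between the same arrays among members with such a word and a single window (E2f2 and Mcm7, with 2 windows, were left out).
Mcm5 (chr8:75109259-75109558, plus strand): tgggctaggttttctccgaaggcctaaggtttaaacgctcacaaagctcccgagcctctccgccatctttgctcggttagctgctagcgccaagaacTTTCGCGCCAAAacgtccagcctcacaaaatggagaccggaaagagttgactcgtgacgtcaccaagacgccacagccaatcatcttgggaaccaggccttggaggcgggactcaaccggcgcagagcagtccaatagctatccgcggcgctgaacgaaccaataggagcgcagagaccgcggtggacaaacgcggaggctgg
Cdc6 (chr11:98907901-98908200, plus strand): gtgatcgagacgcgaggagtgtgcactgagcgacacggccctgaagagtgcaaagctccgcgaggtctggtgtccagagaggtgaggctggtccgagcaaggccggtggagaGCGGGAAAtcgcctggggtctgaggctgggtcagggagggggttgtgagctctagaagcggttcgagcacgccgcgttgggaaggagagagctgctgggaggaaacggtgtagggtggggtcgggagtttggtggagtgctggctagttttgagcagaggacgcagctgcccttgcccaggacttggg
Mcm3 (chr1:20820263-20820562, minus strand): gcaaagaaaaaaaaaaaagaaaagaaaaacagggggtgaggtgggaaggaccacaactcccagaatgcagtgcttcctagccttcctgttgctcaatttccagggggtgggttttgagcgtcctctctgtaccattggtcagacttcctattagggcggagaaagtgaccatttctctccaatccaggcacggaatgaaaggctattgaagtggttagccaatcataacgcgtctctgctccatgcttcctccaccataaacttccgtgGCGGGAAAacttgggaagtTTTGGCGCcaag
In Mcm5, a helicase subunit, a word on each strand overlapped to give 1 run of capitals. Cdc6, which loads the helicase on origins, held 1 reversed word at base -138. Mcm3 held words at bases 20 and 39, downstream of its start site. A CHR within 50 bases of the start site stood in 17 of 23 G2/M windows, against 9.54% of all genes.

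**Figure D1:**
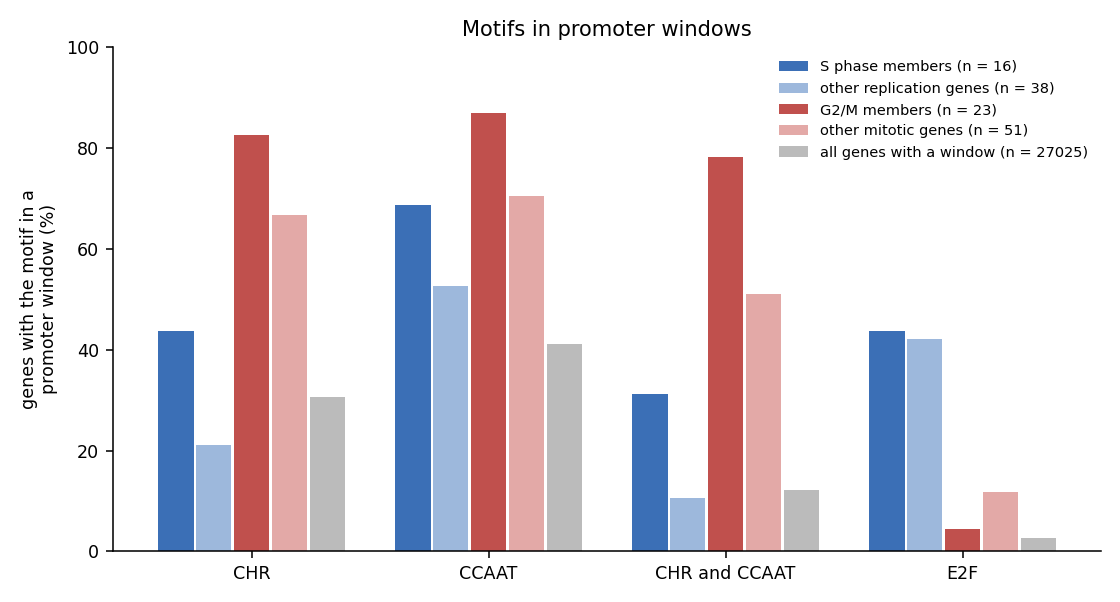
Percent of genes with a CHR, a CCAAT box, both, or an E2F word in a promoter window (vertical axis), for S phase and G2/M members, other replication and mitotic genes, and all 27025 genes with a window. The pair of CHR and CCAAT stands in 78.3% of the G2/M members, and the E2F words in 43.8% of the S phase members.

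No cell cycle gene passed the test between genotypes. Of 52 tested members, 0 had an adjusted p under 0.05 by limma, and 0% of all 15421 tested genes did. At an unadjusted p under 0.05, 0 members were lower on the arrays labelled S1pr2-/- (5.95% of all tested genes were) and 0 were higher (4.55% of all tested genes). The smallest unadjusted p among the members was 0.190, and their adjusted p ran from 0.632 to 1. Differences, S1pr2-/- minus wild-type, ran from -0.29 for Cdk1 to 0.12 for Mcm5. The median difference was -0.05 for S phase genes, -0.09 for G2/M genes and -0.09 for G1 genes, beside 0 for all tested genes. S phase and G2/M medians thus differed by 0.04, while the medians of single arrays varied between replicates by an SD of 0.21 (n = 2 per genotype) in the same quantity. By the brightest probe, the genotypes did not overlap for 4 lower members, Cdk4, Ccne1, E2f2 and Pcna, and for 0 higher ones. Over all tested genes the shares were 21.9% and 22.2%. The other probes of Cdk4 were higher without overlap, so its direction is not read. With 2 arrays per genotype an exact permutation test of a single gene cannot go below p = 0.333. The 95% intervals of the fitted differences reached from -1.24 to 1.14 over the members, and the median SE was 0.26 for G2/M genes and 0.15 for S phase genes.

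**Figure D2:**
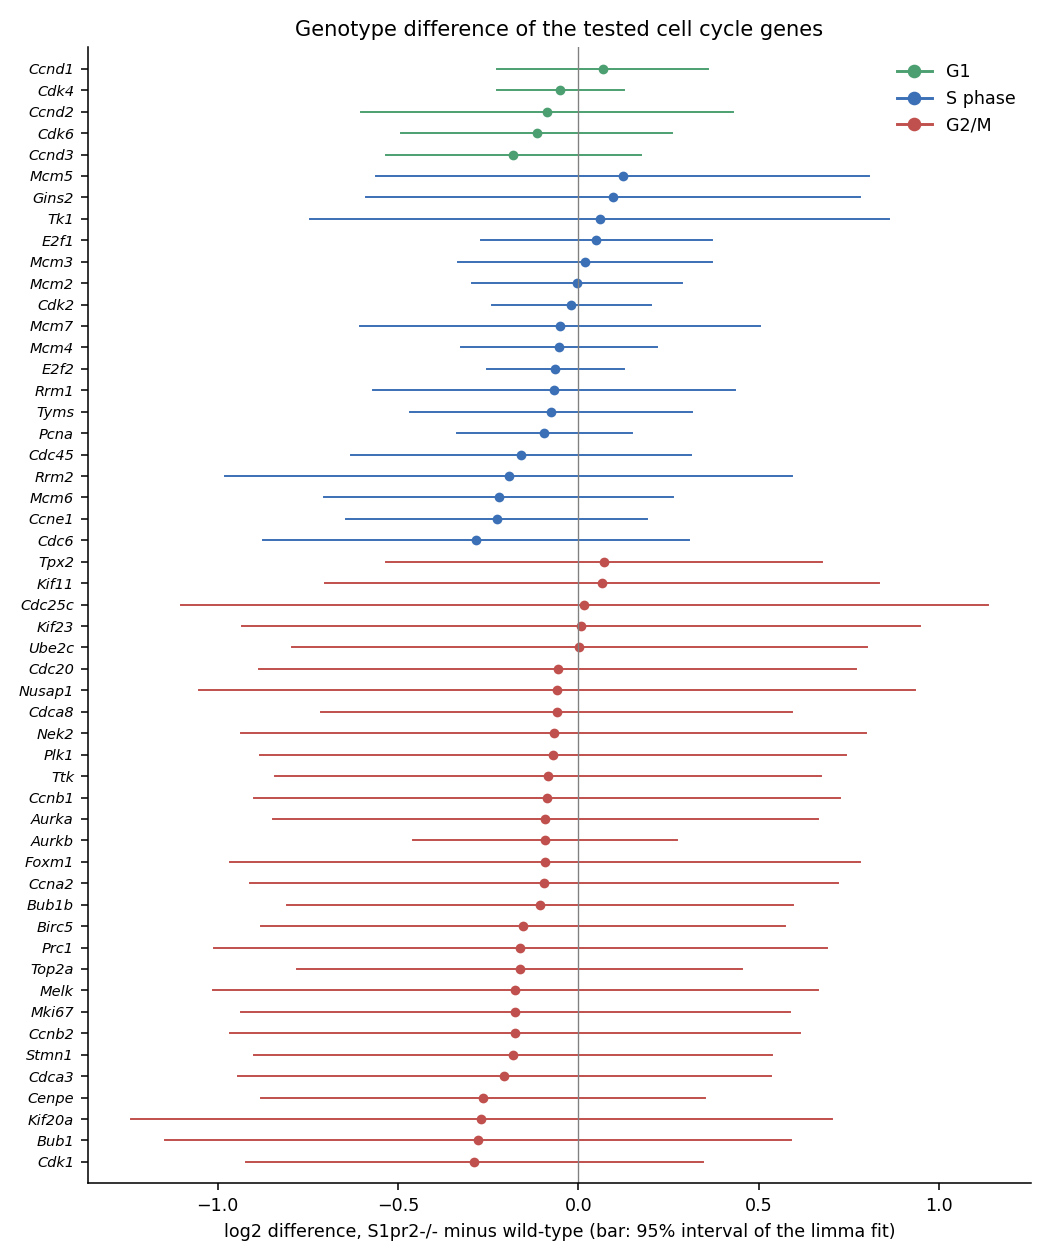
Log2 difference between genotypes (horizontal axis) of the 52 tested cell cycle genes (vertical axis), with points for the difference and bars for the 95% interval of the limma fit. Every interval spans 0, and the widest ones belong to G2/M genes.

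The arrays labelled S1pr2-/- differed from each other instead, and most in the genes of mitosis. All 28 G2/M genes that were off the floor on every array were higher on S1pr2-/- replicate 2 than on replicate 1, by between 0.21 and 0.86 on the log2 scale. Aurkb and Cenpf were at the floor on replicate 1, and with them the median over all 30 was 0.63, or 1.55-fold. Of 18 S phase genes off the floor, 17 were higher on replicate 2, by a median of 0.28 (0.23 with Ccne2, at the floor on all arrays), and of the G1 genes 3 of 5, by a median of 0.13. The median over all tested genes was 0.01, and 8207 of 15421 were higher on replicate 2. A difference of more than 0.5 in this direction was seen in 27 of 52 tested members, 23 of them G2/M genes and 4 S phase genes, beside 4.44% of all tested genes. The wild-type arrays lay closer together, with replicate 2 minus replicate 1 at a median of -0.14 for G2/M genes and -0.05 for S phase genes. In 33 of 52 tested members, namely 24 of 29 G2/M genes, 9 of 18 S phase genes and 0 of 5 G1 genes, S1pr2-/- replicate 1 was the lowest array and S1pr2-/- replicate 2 the highest, with both wild-type arrays between them, beside 8.05% of all tested genes. These are comparisons of 2 arrays and carry no test.

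**Figure D3:**
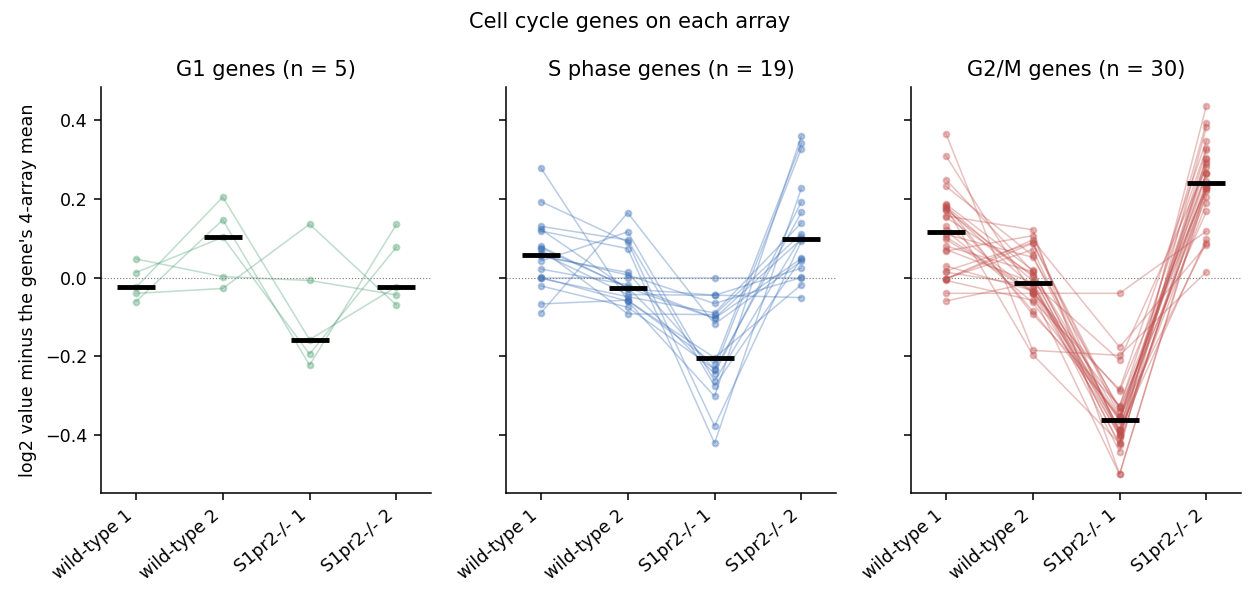
Each gene's log2 value minus its mean over the 4 arrays (vertical axis) on each array (horizontal axis), for 5 G1, 19 S phase and 30 G2/M genes, 1 line per gene, with a black bar for the median. The G2/M median lies at -0.36 on S1pr2-/- replicate 1 and at 0.24 on S1pr2-/- replicate 2, with the wild-type arrays at 0.12 and -0.01.

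The genotype result therefore depended on which S1pr2-/- array was read. Against the mean of the wild-type arrays, the median G2/M gene was at -0.41 on replicate 1 and at 0.19 on replicate 2, and the median S phase gene at -0.16 and 0.02. With S1pr2-/- replicate 2 left out, limma gave 16 members lower at an unadjusted p under 0.05, beside 3.88% of all tested genes, and 51 lower without overlap, beside 36.8%. With replicate 1 left out, it gave 8 members higher, beside 5.17%, and 33 higher without overlap, beside 39.3%. In both cases 0 members had an adjusted p under 0.05, and the lone array was assumed to vary like the others.

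Among the regulators of mitosis, Ccnb1, the cyclin that partners Cdk1 at mitotic entry, read 0.09 and -0.16 in wild-type cells and -0.43 and 0.19 on the arrays labelled S1pr2-/-. The S1pr2-/- values lay on either side of both wild-type values, with a fitted difference of -0.09 (SE 0.27). Ccna2, the cyclin of S phase and G2, read 0.62 and 0.55 against 0.15 and 0.83, the same order. Cdk1, the kinase itself, read -0.15 and -0.33 against -0.77 and -0.29, so that replicate 1 was the lowest array and replicate 2 lay among the wild-type arrays. Foxm1, the factor of the late wave, read -1.70 and -1.87 against -2.23 and -1.53, and was 1.63-fold higher on the second S1pr2-/- array than on the first.

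Plk1, a kinase of spindle assembly, read 1.03 and 0.89 in wild-type cells and 0.56 and 1.22 on the arrays labelled S1pr2-/-. Bub1, a kinase of the spindle checkpoint, read -2.00 and -2.04 against -2.66 and -1.94, so that replicate 1 was more than 0.5 below every other array. Ube2c, which conjugates ubiquitin for the anaphase-promoting complex, read 0.31 and 0.25 against -0.05 and 0.61. Its fitted difference was 0.00 (SE 0.26), while its S1pr2-/- arrays were 1.58-fold apart. Birc5, or survivin, a subunit of the chromosomal passenger complex, read 2.62 and 2.42 against 2.09 and 2.65. Its partner kinase Aurkb lay near the floor, at -6.47 and -6.37 against -6.64 and -6.39, and its order is not read.

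Mki67, the proliferation antigen Ki-67, read 2.09 and 2.13 in wild-type cells and 1.63 and 2.25 on the arrays labelled S1pr2-/-, the wild-type values lying between. Top2a, the topoisomerase that untangles sister chromatids, read -1.25 and -1.30 against -1.69 and -1.19. Both genes are used as labels of cycling cells, and replicate 2 minus replicate 1 was 0.04 and -0.06 for the wild-type arrays and 0.63 and 0.50 for the S1pr2-/- arrays. Besides Cdk1 and Bub1, the G2/M genes with the smallest unadjusted p within that group were Cenpe, Cdca3 and Kif20a. Cenpe, a kinetochore motor, read 1.06 and 0.82 against 0.45 and 0.90. Cdca3, which mediates degradation of the mitotic inhibitor Wee1, read 0.90 and 0.73 against 0.32 and 0.90. Kif20a, a kinesin of cytokinesis, read 0.16 and -0.19 against -0.65 and 0.08. In each of these, replicate 1 was the lowest array and replicate 2 lay within or at the edge of the wild-type values.

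The largest gap between the S1pr2-/- arrays among the G2/M genes was that of Cdc25c, the phosphatase that activates Cdk1, at -5.57 and -4.71 (1.81-fold), with wild-type values of -4.97 and -5.34. Nusap1, a spindle protein, was 1.77-fold apart and Kif23, a kinesin of the cytokinetic midzone, 1.72-fold. The smallest gap among the G2/M genes off the floor was that of Stmn1. Cenpf was well above background on 1 array of each genotype and was not tested, and Stmn1, a tubulin-binding protein also made by cells that do not divide, read 3.12 and 2.57 against 2.56 and 2.77 by its brightest probe. Its other probe read 2.56 and 2.55 against 2.09 and 2.80, so the probes disagree on whether the wild-type arrays or the others lay further apart.

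In 9 of 18 tested S phase genes the wild-type arrays lay between the S1pr2-/- arrays, as above. Rrm2, the inducible subunit of ribonucleotide reductase, read 2.37 and 2.32 in wild-type cells and 1.83 and 2.48 on the arrays labelled S1pr2-/-. Tk1, thymidine kinase, read 1.71 and 1.65 against 1.41 and 2.07, and Mcm5 read 0.39 on both against 0.23 and 0.79. These 3 genes and Gins2, a helicase cofactor, were the S phase genes more than 0.5 apart between the S1pr2-/- arrays. Pcna, the clamp of the replicative polymerase, read 4.73 and 4.58 against 4.56 and 4.55, so that the S1pr2-/- arrays were level with each other and just below the wild-type arrays (difference -0.09, 95% interval -0.34 to 0.15). Mcm2 read -0.27 and -0.31 against -0.39 and -0.19, a smaller version of the spread around wild-type. Mcm6 read 3.81 and 3.48 against 3.33 and 3.52, with the wild-type arrays further apart than the others. Tyms, thymidylate synthase, read -3.31 and -3.05 against -3.34 and -3.18, with overlapping groups. Cdc6 read -3.13 and -3.24 against -3.70 and -3.23, the low value again being that of replicate 1.

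Of the factors of the G1/S transition, E2f1 read 0.82 and 0.77 in wild-type cells and 0.73 and 0.96 on the arrays labelled S1pr2-/-. E2f2 read 3.43 and 3.38 against 3.30 and 3.37, without overlap but by 0.06 (SE 0.06, adjusted p = 0.735). Cdk2, the kinase of S phase entry, read -1.58 and -1.69 against -1.69 and -1.62. Its cyclin Ccne1 read 1.05 and 1.01 against 0.64 and 0.96, with the smallest unadjusted p of the set and no overlap, at a difference of -0.23 (SE 0.14, adjusted p = 0.632). Ccne2 was at the floor on all arrays and not above background on any of them, so no difference is given.

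In 3 of the 5 G1 genes S1pr2-/- replicate 1 was the lowest array, and in 0 of them was replicate 2 the highest. Ccnd1, the cyclin induced by growth factors, read 0.49 and 0.50 in wild-type cells and 0.67 and 0.46 on the arrays labelled S1pr2-/-, so that replicate 1 was the highest array. Ccnd2 read 2.64 and 2.85 against 2.48 and 2.84. Ccnd3 read 4.01 and 4.24 against 3.88 and 4.01. In both cyclins replicate 1 was the lowest array and replicate 2 did not exceed the higher wild-type value. Their kinase Cdk4 read 3.26 and 3.22 against 3.21 and 3.17 by its brightest probe, a difference of -0.05 (95% interval -0.23 to 0.13). Its other probes went the other way without overlap, at 1.05 and 1.15 against 1.17 and 1.34, and at 2.03 on both against 2.12 and 2.19. Cdk6 read -3.59 and -3.50 against -3.80 and -3.53.

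Several probes measured 13 of the members, and all 17 probes other than the brightest were higher on S1pr2-/- replicate 2 than on replicate 1, by 0.07 to 0.88. Their sign between genotypes was less steady, since in 6 members (Ccnb1, Ccnd3, Cdk4, Foxm1, Tpx2 and Ube2c) the probes differed in sign, and 0 of these 17 probes had an unadjusted p under 0.05.

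Members whose window held both CHR and CCAAT were apart between the S1pr2-/- arrays by a median of 0.59 (n = 23), and those whose window lacked 1 or both words by 0.32 (n = 19). Within the G2/M genes the order was the other way, at 0.62 with both words (n = 18) and 0.72 without (n = 5: Birc5, Bub1, Melk, Nek2 and Nusap1). In the S phase genes the medians were 0.37 with both words (n = 5) and 0.23 without (n = 11).

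Other genes of the same processes were read from lists that hold no member. Of 63 other mitotic genes, 62 were higher on S1pr2-/- replicate 2 than on replicate 1, by a median of 0.55, and 37 by more than 0.5. Pttg1, which holds back separase, was the exception at -0.04. Of 48 other replication genes, 42 were higher on replicate 2, by a median of 0.27, with 7 of 47 tested by more than 0.5. Of 26 inhibitors and pocket proteins, 18 were higher, by a median of 0.06. Over all tested genes, 8207 of 15421 were higher on replicate 2, and 4.44% by more than 0.5.

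**Figure D4:**
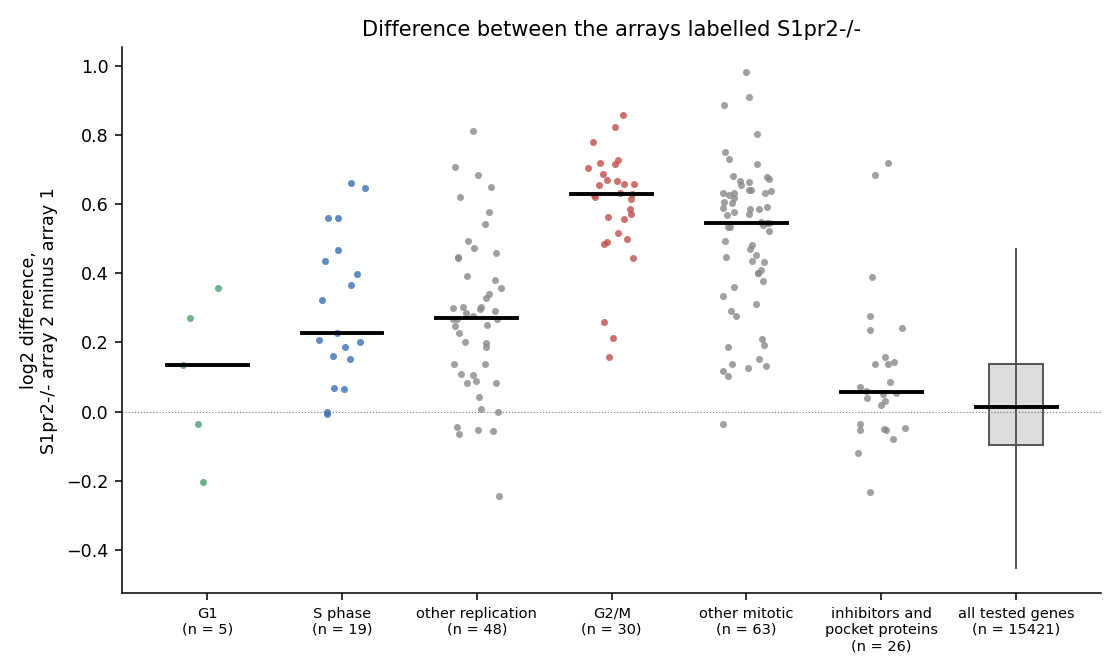
Log2 difference between the arrays labelled S1pr2-/-, replicate 2 minus replicate 1 (vertical axis), of each G1, S phase and G2/M member and of each other replication, mitotic and inhibitor gene (points, black bar for the median), with the middle 50% (box) and the range from the 5th to the 95th percentile (line) of all 15421 tested genes. The G2/M median is 0.63 and that of all tested genes 0.01.

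Between genotypes, 0 genes in these lists had an adjusted p under 0.05 by limma, and 0 of all 15421 tested genes did. Of 47 tested replication genes, 1 was lower at an unadjusted p under 0.05 and 0 higher, beside 5.95% and 4.55% of all tested genes. That gene was Dnmt1, the maintenance DNA methyltransferase, at -0.68 and -0.76 in wild-type cells and -1.03 and -1.02 on the arrays labelled S1pr2-/- (difference -0.31, adjusted p = 0.509). The next in order were Gmnn (-0.20) and Orc3 (-0.13) on the lower side and Lig1 (0.18), Rfc2 (0.18) and Orc2 (0.14) on the higher side.

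Of 63 tested mitotic genes, 2 passed an unadjusted p of 0.05 as lower and 0 as higher, beside 5.95% and 4.55% of all tested genes. Lmnb1, a lamin of the nuclear envelope, read -0.25 and -0.13 against -0.99 and -0.79 (difference -0.70, adjusted p = 0.509). Smc4, a condensin subunit, read 2.14 and 2.10 against 1.75 and 1.89 (difference -0.30, adjusted p = 0.515). Dlgap5 followed at -0.47, and Kifc1 (0.35), Espl1 (0.31) and Bub3 (0.07) were the foremost on the higher side. In Lmnb1 and Smc4 both S1pr2-/- arrays lay below both wild-type arrays. Of the 63 mitotic genes, 3 were lower without overlap and 2 higher, beside 21.9% and 22.2% of all tested genes.

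Of 26 inhibitors and pocket proteins, 4 were lower and 1 higher at an unadjusted p under 0.05, beside 5.95% and 4.55% of all tested genes, and 0 had an adjusted p under 0.05. Cdkn2b, the inhibitor p15 of Cdk4 and Cdk6, read 0.29 and 0.55 against -0.34 and -0.18 (difference -0.68, adjusted p = 0.509). Cdkn2d, the inhibitor p19 of the same kinases, read 2.20 and 2.16 against 1.86 and 1.81 (difference -0.35, adjusted p = 0.509). Btg1, an antiproliferative factor, differed by -0.21 and Cdkn2a by -0.37. The higher gene was Rb1, the retinoblastoma protein, at 0.20, followed by its relatives Rbl2 (0.17) and Rbl1 (0.20). Without overlap between genotypes, 9 of the 26 were lower and 8 higher, beside the 21.9% and 22.2% of all tested genes.

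Markers of other cells differed between arrays as well, and eosinophil and B cell markers did so more between the wild-type arrays than between the S1pr2-/- arrays. Eosinophil markers were lower on the arrays labelled S1pr2-/- in 8 of 8 genes (median difference -4.10). By limma, 5 were lower at an unadjusted p under 0.05, beside 5.95% of all tested genes, and 0 had an adjusted p under 0.05. All 8 were higher on S1pr2-/- replicate 2 than on replicate 1 (median 0.47). Their summed level was 118 and 136 in wild-type cells and 103 and 122 on the others, most of it from Ear1 and Siglecf, and Siglecf is also an alveolar macrophage marker. Epx, the eosinophil peroxidase, read -2.96 and -1.13 in wild-type cells and -6.64, the floor, and -6.50 on the others. The median eosinophil marker lay at -0.24 and 1.43 in wild-type cells and at -4.76 and -3.84 on the others. The gaps within each genotype were thus read at unlike levels, nearer the floor on the arrays labelled S1pr2-/-. T cell markers were lower on the arrays labelled S1pr2-/- in 10 of 10 genes (median difference -0.37), beside 7626 of 15421 tested genes. They were lower on S1pr2-/- replicate 2 than on replicate 1 in 8 of 10 genes (median -0.50). Their sums were 62.0 and 69.9 in wild-type cells and 53.1 and 54.6 on the others, so the sum did not follow that median. B cell markers differed by -0.46 and monocyte-derived macrophage markers by -0.57 in the median, the latter with sums of 113 and 46.9 against 119.8 and 76.9. Neutrophil markers differed by 0.10 (single genes from -1.99 to 1.26), alveolar macrophage markers by 0.13, epithelial markers by 0.22 and erythroid markers by 0.25, all between the S1pr2-/- arrays. Between the wild-type arrays, replicate 2 minus replicate 1 had a median of 1.49 for eosinophil, -1.25 for B cell and -0.44 for monocyte-derived macrophage markers. It was 0.06 for neutrophil, 0.09 for T cell, 0.14 for alveolar macrophage, 0.20 for epithelial and 0 for erythroid markers. The erythroid sums were 28.3 and 17.7 against 28.5 and 33.4, with Epb42 not above background on any array. Neutrophil sums were 85.9 and 96.5 against 69.5 and 63.2, B cell sums 3.14 and 1.70 against 1.90 and 1.52, and epithelial sums 44.9 and 53.4 against 39.7 and 64.4. Mast cell and basophil markers were at 0.81 and 0.96 against 0.73 and 0.74 in sum, and Mcpt8, Fcer1a, Ms4a2 and Gata2 were not above background on any array. The part of these cells in the cell cycle values was not tested.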

How the data were processed

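BALF cells were measured on 4 one-color Agilent arrays, 2 per genotype, on 1 slide in 1 scan. The authors deposited the scanner intensity of each spot, background-corrected by Feature Extraction, and a table of log2 values. The processing notes name Feature Extraction 10.7.3.1 and the file headers 11.0.1.1. Against the scanner output the deposited log2 table held log2 of the processed intensity over the 75th percentile, centred on the wild-type arrays (column medians 0.02, -0.02, -0.06 and -0.03), and was used only as an alternative.

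The processed signal was scaled to the 75th percentile of its array, floored at 0.01 of it, and log2 was taken. The methods list their minimum of 0.01 before the scaling, and the deposited log2 table matched values without a floor. Outlier-flagged spots (115 to 273 per array) were left out, no spot was saturated, and replicate spots were averaged. Names came from RefSeq GRCm38.p6 through the accession (69.6% of 39429 probes). Probes well above background on both arrays of a genotype (27158) were fitted with limma 3.58.1 in R 4.3.3 (lmFit, eBayes) with Benjamini-Hochberg adjustment over all of them. The fit was tested on simulated data. Each gene was represented by its brightest probe.

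The members, their phases, the other lists and the motifs were chosen with earlier results of these data known. Arrays are given for the main proliferation, replication and G1 genes, for the 5 members with the smallest unadjusted p in the S phase and G2/M groups, and for the foremost 3 genes per direction of each other list; a few others were named after their values were seen. Normexp correction used the median signal, since no mean signal was among the columns, with flagged spots removed first.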

Additional observations from a re-analysis of the deposited data

How the results depend on the processing

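By limma, 0 members had an adjusted p under 0.05 under every alternative run with all arrays, and 0 of all tested probes or genes did. The count is therefore not particular to the members. The alternatives were quantile normalization, the percentile over detected probes, normexp, the deposited log2 table, values without the floor and all probes unfiltered. The others were probes detected on every array, flagged spots kept, trended variance, the mean of all probes of a gene and the replicate block. The methods' t-test gave 0 members lower and 0 higher at an unadjusted p under 0.05. The share of all tested genes was not computed for that test, so these counts are not read as a result about the members. Without Mki67, Ccna2 and Stmn1 the G2/M median was -0.09. No label says whether same-numbered arrays came from 1 experiment. The deviations of the replicate 1 arrays from their genotype means correlated at 0.19 over the 27158 tested probes. In this balanced design the replicate block leaves every difference as it is (medians -0.09 for G2/M and -0.05 for S phase genes). It gave 0 members at an adjusted p under 0.05, and 0 of all tested probes.

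Leaving out 1 array moved the values. Members lower at an unadjusted p under 0.05 ran from 0 to 16 (16 without S1pr2-/- replicate 2) and members higher from 0 to 8 (8 without S1pr2-/- replicate 1). Members lower without overlap ran from 5 to 51 (10 and 12 without a wild-type array, 51 without S1pr2-/- replicate 2) and higher from 0 to 33 (33 without S1pr2-/- replicate 1, 1 without replicate 2). A lone array separates more genes: the share of all tested genes was 36.8% lower without S1pr2-/- replicate 2 and 39.3% higher without replicate 1. Without a wild-type array that share was not computed, so those counts are not read as a rise. With all arrays, normexp gave 5 higher without overlap and the mean of all probes 1. The share of all tested genes was not computed under these settings, and was 22.2% under the main one. Median differences ran from -0.16 to 0.024 for S phase, -0.41 to 0.19 for G2/M and -0.25 to -0.036 for G1 genes, and S phase minus G2/M from -0.16 to 0.26.

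Single genes were followed for 31 of the 52 tested members. These were the main proliferation, replication and G1 genes and those with the smallest unadjusted p in their group. Of these 31, 22 changed sign without 1 array. The values ran from -0.22 to 0.036 for Aurkb, -0.44 to 0.13 for Birc5, -0.64 to 0.081 for Bub1, -0.43 to 0.24 for Ccna2, -0.40 to 0.22 for Ccnb1, -0.036 to 0.17 for Ccnd1, -0.27 to 0.092 for Ccnd2, -0.50 to 0.087 for Cdca3, -0.073 to 0.032 for Cdk2, -0.25 to 0.020 for Cdk6, -0.064 to 0.16 for E2f1, -0.45 to 0.26 for Foxm1, -0.63 to 0.095 for Kif20a, -0.10 to 0.096 for Mcm2, -0.16 to 0.40 for Mcm5, -0.49 to 0.14 for Mki67, -0.40 to 0.26 for Plk1, -0.52 to 0.13 for Rrm2, -0.27 to 0.39 for Tk1, -0.41 to 0.087 for Top2a, -0.20 to 0.052 for Tyms, -0.33 to 0.33 for Ube2c.

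With all arrays the sign turned for Aurkb (0.36) and Cdk6 (0.069) under normexp, for Ube2c (-0.013) and Cdk4 (0.077) with the mean of probes, for Mcm2 (0.0091 under quantile normalization, 0.0059 with the percentile over detected probes, 0.081 under normexp), for Tyms (0.0054 under quantile normalization, 0.063 under normexp) and for Cdk2 (0.023 and 0.032 under the same). Normexp shifted the median of all genes by 0.16 between genotypes and by -0.30 between the S1pr2-/- arrays. The cause was not tested.

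The gap between the S1pr2-/- arrays was put through the same alternatives after the data were seen. With both S1pr2-/- arrays kept, the median of replicate 2 minus replicate 1 ran from 0.52 to 0.64 for G2/M, 0.15 to 0.32 for S phase and 0.06 to 0.20 for G1 genes, and 43 to 51 of 54 members were higher on replicate 2. The depth of signal over background limits Ccne2, Cenpf and Aurkb, which reached the floor, and the dim probes of Ttk and Cdc25c lay next above them.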
